A study of Mus musculus with 4 samples.

Results

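The 32 genes described here are the chaperones of the endoplasmic reticulum (ER) and the stress response that adjusts them, chosen by their gene name in the annotation of the array. They were read by 44 probes out of 55681 on the array, and all 32 were well above background on all 4 arrays, as were 18256 of 34797 genes in all. Where a gene had several probes, the brightest was used.

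RNA came from 3T3-L1 cells, mouse fibroblasts of an established line that turn into adipocytes when they are induced in culture. The groups were daidzein+PT (25 uM daidzein with 100 ug/ml of pig testis extract, called PT), PT alone (100 ug/ml) and daidzein alone (25 uM). PBS was the control, and all groups were of day 7. Daidzein is an isoflavone of soy, and the question behind the series is the effect of PT on adiponectin, a hormone of fat cells. Each group was read on 1 single-colour array of 60-base probes, so no difference between arrays has a replicate check, and the number of arrays limits the precision. Nothing in the labels says how many cultures stand behind an array.

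All 4 arrays lay on 1 slide, with PT and daidzein+PT in row 2 and PBS and daidzein in row 1, so PT and slide row cannot be told apart. Between 49.7% and 51.4% of non-control spots were well above background, and no spot was saturated. The 10 markers of mature adipocytes were well above background on every array, as were the 10 markers of preadipocytes and fibroblasts, the cells from which the culture starts. Of 5 macrophage markers read, Emr1 and Ptprc were not well above background on any array. The other 3, Cd68, Csf1r and Itgam, were well above it on all 4. Of 7 testis markers only Prm1 and Prm2 were, both among the dimmest genes read.

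The ER folds proteins that are bound for the cell surface, the extracellular space and the membranes of the cell. The sensors in its membrane, IRE1, PERK and ATF6, answer an excess of unfolded protein by raising chaperones and degradation factors and by slowing translation, which is known as the unfolded protein response. In fat cells this machinery is known for the assembly of secreted hormones such as adiponectin, and the IRE1 target XBP1 is known as a factor that fat cell differentiation needs.

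The genes of the response carry known DNA elements before their start sites. The ER stress response element (ERSE) was searched as CCAAT and CCACG with any 9 bases between them, its shorter relative ERSE-II as ATTGG and CCACG with any 1 base between them, the XBP1-type element (UPRE) as TGACGTGG and the composite site of C/EBP and ATF factors (CARE) as TGATGNAA, each on both strands. The windows ran from 250 bases before to 50 bases after each start in the RefSeq table (GRCm38.p6), which held 28 of the 32 genes and not Atf6, Hyou1, Manf or Derl1. ERSE letters stood in 7 of the 28 genes, against 0.119% of 32851 promoters of the same length. ERSE-II holds the CCAAT block of ERSE turned round and the same CCACG block, and none of the 28 windows held both. The sequences are shown because they mark which chaperone genes carry the element that the sensor ATF6 is known to act through, and their values are set beside them. Each is on the strand of its gene, 5′ to 3′, with the ERSE in capitals, and covers only bases before the start site.
Hspa5 (chr2:34772013-34772055, + strand): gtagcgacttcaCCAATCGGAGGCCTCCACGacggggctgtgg
Hsp90b1 (chr10:86705626-86705668, - strand): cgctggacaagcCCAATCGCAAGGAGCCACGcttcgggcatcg
Hsp90b1 (chr10:86705521-86705563, - strand): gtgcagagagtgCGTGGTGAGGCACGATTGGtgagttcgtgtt
Calr (chr8:84847063-84847105, - strand): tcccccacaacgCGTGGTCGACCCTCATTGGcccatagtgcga
Canx (chr11:50325788-50325830, - strand): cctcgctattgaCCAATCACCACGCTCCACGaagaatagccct
Pdia6 (chr12:17266479-17266521, + strand): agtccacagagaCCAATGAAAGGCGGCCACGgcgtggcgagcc
Dnajc3 (chr14:118937815-118937857, + strand): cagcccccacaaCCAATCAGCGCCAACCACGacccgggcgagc
Creld2 (chr15:88819508-88819550, + strand): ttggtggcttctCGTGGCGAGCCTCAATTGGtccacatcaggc

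CARE letters stood in 5 of the 28 genes, Atf3, Herpud1, Trib3, Chac1 and Asns, against 3.97% of all promoters. ERSE-II stood in Herpud1 and Dnajb11, against 0.0365%, and UPRE letters in none of the 28, against 0.676%. A match is a description of the letters and not a binding site, and a window with no match says only that these letters are not in it. The CARE matches that lie before the start site are shown with the site in capitals, because one of them belongs to Atf3, the gene of the set with the widest range over the arrays.
Atf3 (chr1:191183424-191183455, - strand): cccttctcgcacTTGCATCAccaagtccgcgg
Chac1 (chr2:119351037-119351068, + strand): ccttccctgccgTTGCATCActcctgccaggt
Asns (chr6:7693213-7693244, - strand): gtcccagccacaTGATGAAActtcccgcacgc
Herpud1 (chr8:94386305-94386336, + strand): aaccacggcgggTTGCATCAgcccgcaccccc

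Most chaperone and stress genes had nearly the same signal on all 4 arrays, while the mature adipocyte markers differed several-fold. Levels are scaled signals, the processed spot signal divided by the 75th percentile of its array, so that 1 is that percentile, and differences are log2 differences of these levels. The highest array was less than 0.32 above the lowest on the log2 scale for 25 of the 32 genes (78.1%), against 61.7% of all 18256 genes read on every array. The share was 79.1% among the 6086 brightest of these genes, which include 22 of the 32. The exceptions at 1.5-fold or more were Atf3 (0.97) and Dnajb9 (0.69), followed by Xbp1 (0.54), Atf6 (0.43), Hyou1 (0.42), Derl1 (0.41) and Chac1 (0.33). To give a single difference an error, the departure from additivity of the treatments was taken over genes of like signal. It corresponds to an SD of a log2 difference of 0.33 for the 6086 dimmest genes, 0.14 for the 6084 of middle signal and 0.11 for the 6086 brightest. This SD is taken over genes and contains any true dependence of one treatment on the other.

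On the daidzein+PT array, 2 of 32 genes were at least 1.5-fold above PBS, Dnajb9 and Atf3, where 6.00% of all 18461 genes were. None was 1.5-fold lower, where 2.96% were, and 28 lay within 0.32 of 0, where 75.7% of all genes did. The median log2 difference of the 32 was -0.07, against -0.03 for all genes. For PT over PBS the median was -0.06, against -0.02 for all genes. No gene of the set was 1.5-fold higher or lower there (2.66% and 0.638% of all genes), and 31 of 32 lay within 0.32 (88.9% of all genes). For daidzein over PBS the median was -0.03, equal to that of all genes to 2 decimals. Again no gene of the set was 1.5-fold higher or lower (3.12% and 2.40% of all genes), and 30 lay within 0.32 (83.2%). Among the 6086 brightest genes, 84.0%, 97.6% and 92.3% lay within 0.32 for daidzein+PT, PT and daidzein over PBS. Of the 22 genes of the set among them, 21, 22 and 22 did. These 3 comparisons share the PBS array. The count on the higher side is near that of all genes in each comparison, and a direction for the whole set cannot be read from medians this small, because its sign for PT over PBS turns when spike-in probes set the scale (0.089).

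**Figure D1:**
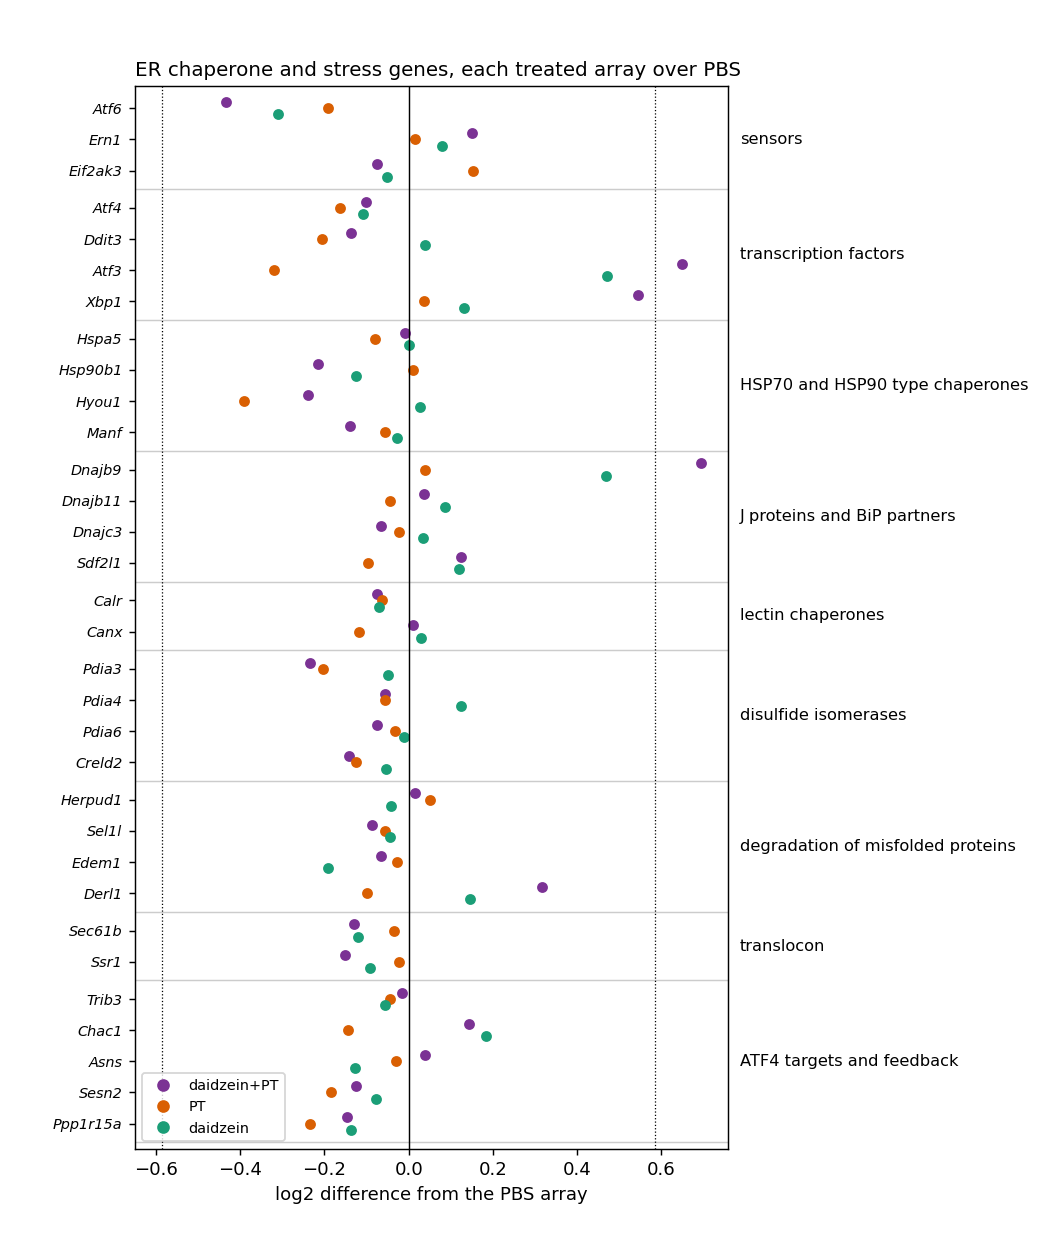
Each row is a gene, grouped by role, and each point is the log2 difference of a treated array from the PBS array (daidzein+PT, PT and daidzein, 1 array each). Dotted lines mark 1.5-fold, and only the daidzein+PT points of Atf3 (0.65) and Dnajb9 (0.69) lie beyond one.

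Of the sensors, Ern1 and Eif2ak3 were close to level and Atf6 was lower on the treated arrays. Atf6, the membrane-bound transcription factor that is released by cleavage, had 0.419 in daidzein+PT, 0.495 in PT and 0.456 in daidzein cells, against 0.565 in PBS cells. It had a log2 difference of -0.43 on the daidzein+PT array (SD of a difference 0.33). All 3 treated arrays lay below PBS, yet this probe (chr1:172635311-172635370, mouse build mm9) is among the 6086 dimmest genes. Ern1, which encodes IRE1, the kinase and nuclease that splices Xbp1 RNA, had 0.561 in daidzein+PT, 0.510 in PT and 0.533 in daidzein cells, against 0.505 in PBS cells. Eif2ak3, which encodes PERK, the kinase that slows translation, had 3.04 in daidzein+PT, 3.56 in PT and 3.09 in daidzein cells, against 3.20 in PBS cells. For these last sensors the 4 arrays differed by at most 1.11-fold and 1.17-fold. Ern1 is also among the dimmest genes (SD of a difference 0.33). A second, dimmer Ern1 probe gave -0.06 for daidzein+PT, -0.15 for PT and 0.20 for daidzein over PBS.

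Among the transcription factors, Atf3 was higher on both arrays with daidzein and Xbp1 mainly on the daidzein+PT array. Atf4 and Ddit3 had neither pattern. Atf3, a stress-induced repressor, had a scaled signal of 0.502 in daidzein+PT, 0.257 in PT and 0.444 in daidzein cells, against 0.321 in PBS cells. Both daidzein arrays lay above both arrays without it. Its log2 difference was 0.65 for daidzein+PT, -0.32 for PT and 0.47 for daidzein over PBS (SD of a difference 0.33), and 0.97 for daidzein+PT over PT. With normexp background correction, daidzein+PT over PBS was below 1.5-fold (0.42). The probe (chr1:192994547-192994606, mm9) is dim, so its differences carry the largest error of the 4 transcription factors.

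Xbp1, the factor whose RNA is spliced by IRE1 and which raises degradation and translocation genes, had 51.2 in daidzein+PT, 36.0 in PT and 38.5 in daidzein cells, against 35.1 in PBS cells. The daidzein+PT array stood apart, 1.46-fold above PBS (log2 0.54, SD of a difference 0.11), while daidzein alone gave 0.13 and PT alone 0.04. PT added to daidzein gave 0.41 and daidzein added to PT gave 0.51, so the departure from additivity was 0.38. Whether the probe (chr11:5425816-5425875, mm9) tells spliced from unspliced Xbp1 RNA was not analysed here. Ddit3, which encodes CHOP, the factor linked to cell death under long stress, had 16.8 in daidzein+PT, 16.0 in PT and 19.0 in daidzein cells, against 18.5 in PBS cells. Both arrays with PT were lower than both without it, with log2 differences of -0.20 for PT over PBS and -0.18 for daidzein+PT over daidzein. These sizes depend on the scaling. With median scaling they were -0.45 and -0.32, and with spike-in scaling -0.06 and -0.12 (SD of a difference 0.11). Atf4, the factor that PERK raises through translation, had 206 in daidzein+PT, 198 in PT and 205 in daidzein cells, against 221 in PBS cells.

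**Figure D2:**
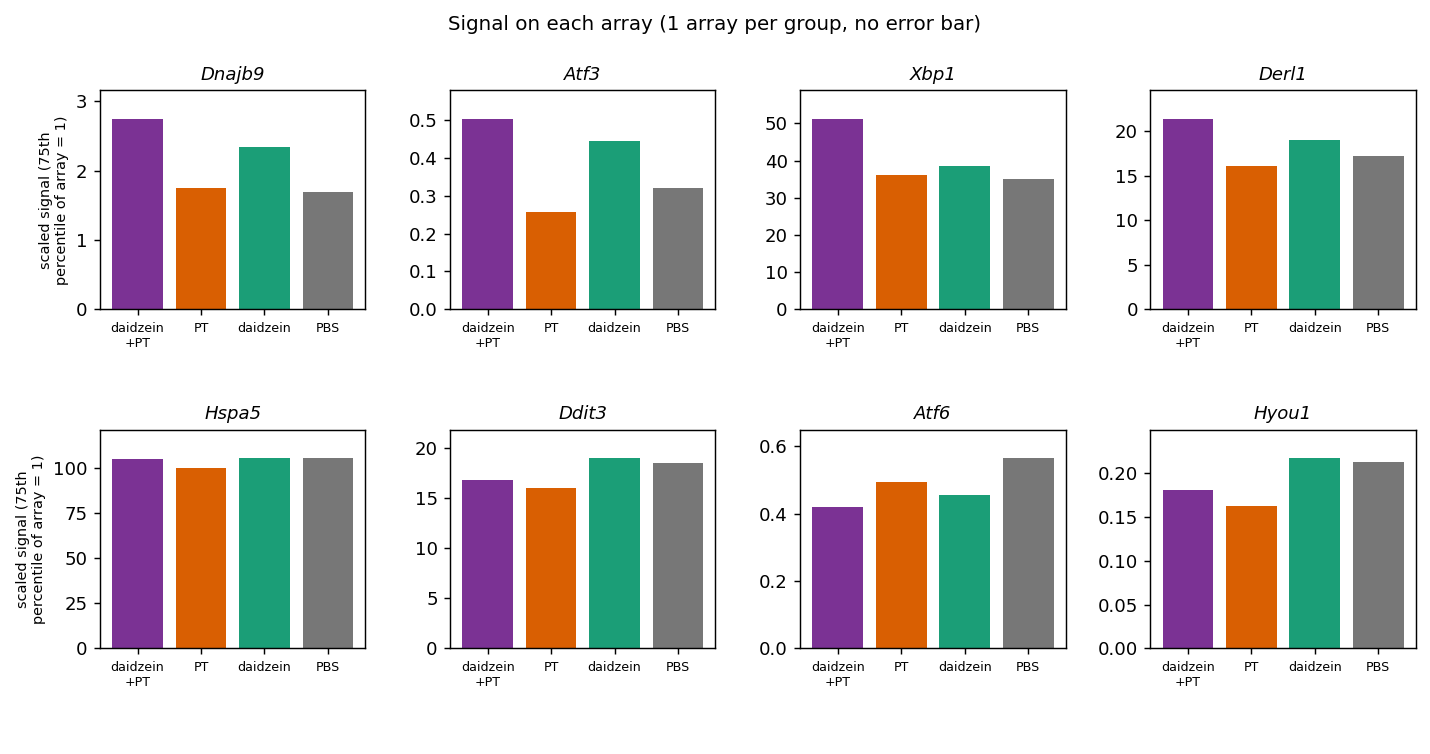
Bars give the scaled signal (75th percentile of the array = 1) on the daidzein+PT, PT, daidzein and PBS arrays, 1 array each and therefore with no error bar, for 8 genes. Dnajb9 and Atf3 are highest on both daidzein arrays, Xbp1 and Derl1 are highest on the daidzein+PT array, and Hspa5 spans 1.06-fold.

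BiP, GRP94 and their helpers, the main chaperones of the ER lumen, were flat or slightly lower. Hspa5, which encodes BiP and is the usual marker of the unfolded protein response, had 105 in daidzein+PT, 99.9 in PT and 106 in daidzein cells, against 106 in PBS cells. These values span 1.06-fold, and the ERSE window of this gene is the first shown above. Hsp90b1, which encodes GRP94, had 63.5 in daidzein+PT, 74.3 in PT and 67.6 in daidzein cells, against 73.7 in PBS cells. Both arrays with daidzein were below both without it, with log2 differences of -0.12 for daidzein over PBS and -0.23 for daidzein+PT over PT (SD of a difference 0.11). Hyou1, an exchange factor and chaperone that works with BiP, had 0.180 in daidzein+PT, 0.163 in PT and 0.217 in daidzein cells, against 0.213 in PBS cells. Its log2 difference was -0.39 for PT over PBS and -0.27 for daidzein+PT over daidzein, on a dim probe with an SD of 0.33. Manf, a BiP partner that is also secreted, ranged from 10.2 in daidzein+PT to 11.2 in PBS cells.

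Of the J proteins, which hand clients to BiP, Dnajb9 alone was at least 1.5-fold higher. Dnajb9, a J protein known as a target of XBP1, had 2.75 in daidzein+PT, 1.75 in PT and 2.35 in daidzein cells, against 1.70 in PBS cells. The 2 daidzein arrays were higher than the PT and PBS arrays, which nearly coincided. Its log2 difference was 0.69 for daidzein+PT, 0.04 for PT and 0.47 for daidzein over PBS (SD of a difference 0.14), and 0.65 for daidzein+PT over PT. A second Dnajb9 probe, dimmer and on chr12:45308272-45308331 against chr12:45307313-45307372 for the first (mm9), gave 0.94, -0.04 and 0.63 over PBS. Dnajb11 ranged from 10.3 to 11.3 over the 4 arrays, and its partner Sdf2l1 from 1.04 to 1.21. Dnajc3, an inhibitor of PERK as well as a BiP partner, varied by 1.07-fold.

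The lectin chaperones and disulfide isomerases, which fold glycoproteins and form their disulfide bonds, all lay within log2 0.32 of PBS on every treated array. Calr had 72.1 in daidzein+PT, 72.7 in PT and 72.4 in daidzein cells, against 76.0 in PBS cells. Canx had 67.2 in daidzein+PT, 61.5 in PT and 68.0 in daidzein cells, against 66.7 in PBS cells. Pdia3, the isomerase that works with both lectins, had 15.0 in daidzein+PT, 15.3 in PT and 17.1 in daidzein cells, against 17.6 in PBS cells. Both arrays with PT were below both without it, with log2 differences of -0.20 for PT over PBS and -0.19 for daidzein+PT over daidzein. With median scaling these were -0.45 and -0.33, and with spike-in scaling -0.06 and -0.13 (SD of a difference 0.11). Pdia4 ranged over the 4 arrays from 6.98 to 7.91, Pdia6 from 69.9 to 73.7, and Creld2, an ER stress target with isomerase activity, from 22.1 to 24.4.

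The 7 genes with ERSE letters in their windows had log2 differences between -0.22 (Hsp90b1) and 0.01 (Canx) for daidzein+PT over PBS, with a median of -0.08. For PT over PBS they lay between -0.12 and 0.01, and for daidzein over PBS between -0.12 and 0.03. All 7 thus lay within 0.32 in these comparisons, as did 75.7%, 88.9% and 83.2% of all genes. Among the 6086 brightest genes, which include all of the 7 but Dnajc3, the shares were 84.0%, 97.6% and 92.3%. The 5 genes with CARE letters had a median of 0.04 for daidzein+PT over PBS, and 4 of them lay between -0.01 and 0.14, with Atf3 at 0.65.

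Of the genes that degrade misfolded proteins, Derl1 was higher on the daidzein+PT array and the other 3 were level. Derl1, a membrane protein that helps to move clients out of the ER, had 21.3 in daidzein+PT, 16.0 in PT and 19.0 in daidzein cells, against 17.2 in PBS cells. Its log2 difference was 0.32 for daidzein+PT over PBS and 0.41 for daidzein+PT over PT (SD of a difference 0.11). The other probe of this gene gave 0.07 and 0.08, so the probes disagree. Herpud1, a scaffold of the degradation complex, had log2 differences over PBS of 0.01 for daidzein+PT, 0.05 for PT and -0.04 for daidzein. Sel1l, the adaptor of the HRD1 ligase, ranged from 3.10 to 3.30 over the 4 arrays. Edem1, which sorts glycoproteins for degradation, ranged from 4.27 in daidzein to 4.88 in PBS cells. Of the genes for protein import, Sec61b, a subunit of the channel, had log2 differences over PBS of -0.13 for daidzein+PT, -0.03 for PT and -0.12 for daidzein, and Ssr1, of the associated TRAP complex, had -0.15, -0.02 and -0.09.

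Of the 5 targets and feedback genes of ATF4, Chac1 spanned 0.33 on the log2 scale over the 4 arrays, and the other 4 spanned less than 0.32. Trib3, a pseudokinase known to restrain AKT, had 53.1 in daidzein+PT, 52.0 in PT and 51.6 in daidzein cells, against 53.6 in PBS cells, the narrowest range of the set (1.04-fold). Asns, which makes asparagine, ranged from 51.5 in daidzein to 57.7 in daidzein+PT cells. Chac1, which breaks down glutathione, had 14.9 in daidzein+PT, 12.2 in PT and 15.4 in daidzein cells, against 13.5 in PBS cells. Both daidzein arrays were above both others, with log2 differences of 0.18 for daidzein over PBS and 0.29 for daidzein+PT over PT. Sesn2, a stress-induced inhibitor of mTORC1, had 7.53 in daidzein+PT, 7.22 in PT and 7.77 in daidzein cells, against 8.21 in PBS cells. Ppp1r15a, the phosphatase subunit that lets translation resume, had 9.23 in daidzein+PT, 8.68 in PT and 9.29 in daidzein cells, against 10.2 in PBS cells.

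Each treatment can be read in 2 pairs that share no array. For daidzein, Atf3 (0.47 over PBS and 0.97 over PT) and Dnajb9 (0.47 and 0.65) were at least 0.32 higher in both pairs, 2 of 32 genes where 4.93% of all genes were. None was lower by as much in both (3.95% of all genes). For PT, none of the 32 passed 0.32 in both pairs in either direction (2.16% and 0.619% of all genes). For daidzein+PT over PT alone, 2 of 32 were 1.5-fold higher (5.03% of all genes), none was lower (3.62%) and 28 lay within 0.32 (76.3%). For daidzein+PT over daidzein none was 1.5-fold higher (3.22%) or lower (0.862%), and 31 lay within 0.32 (86.5%).

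**Figure D3:**
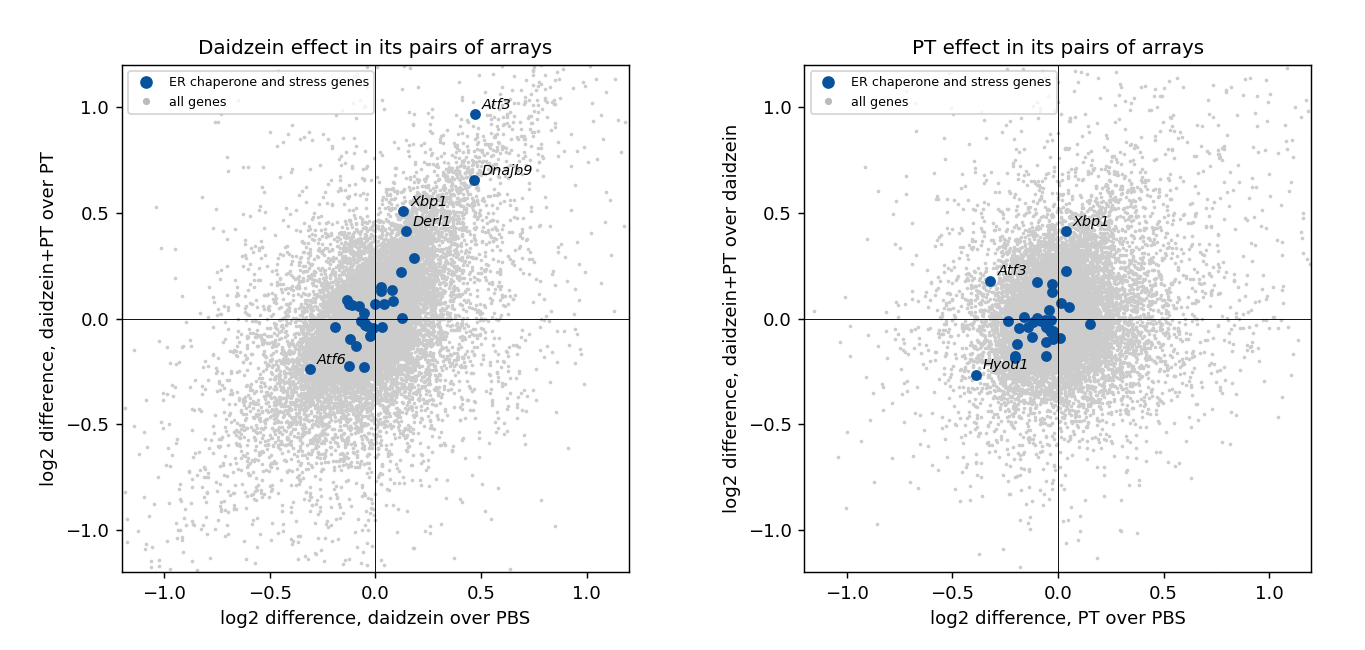
Each blue point is one of the 32 genes and each grey point any gene read on all 4 arrays. The left panel sets daidzein over PBS (x) against daidzein+PT over PT (y), and the right panel PT over PBS (x) against daidzein+PT over daidzein (y), as log2 differences. Atf3 and Dnajb9 lie in the upper right on the left panel, and the others cluster near 0. Genes of the set past 0.3 in either pair are named, and grey points beyond 1.2 on an axis are not drawn.

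Both treatments were then entered as additive terms in a limma fit over 19568 genes, which leaves 1 residual degree of freedom and takes any departure from additivity as error. With an intensity trend, 5 of the 32 genes were higher with daidzein after Benjamini-Hochberg adjustment over all genes, where 9.78% of all genes were called higher. Dnajb9 averaged 0.56 ± 0.08 (SE, limma adjusted p = 3.67e-10), Atf3 0.72 ± 0.14 (limma adjusted p = 9.02e-06) and Xbp1 0.32 ± 0.08 (limma adjusted p = 0.000652). Derl1 averaged 0.28 ± 0.07 (limma adjusted p = 0.00146) and Chac1 0.23 ± 0.07 (limma adjusted p = 0.00932). None was called lower (8.26% of all genes), and at an unadjusted limma p under 0.05 Atf6 and Hsp90b1 were lower and the same 5 higher, where 26.7% of all genes passed in either direction. In this fit the prior degrees of freedom were infinite, so the spread came entirely from other genes of like signal and not from replicates. Atf3 is among the dimmest genes, where the SD of a log2 difference was 0.33, so its SE of 0.14 may be too small. Xbp1 gave 0.13 for daidzein over PBS and 0.51 for daidzein+PT over PT. Its departure from additivity was 0.38, so its SE of 0.08 may be too small as well. The Derl1 value is that of its brightest probe. Its other probe gave -0.05 for daidzein over PBS and 0.08 for daidzein+PT over PT. Without the trend none of the 32 was called for daidzein by limma (0.404% and 0.0358% of all genes called higher and lower), and the lowest adjusted p was 0.149, for Dnajb9. For PT none was called with the trend (3.90% and 0.966% of all genes) or without it (0.0767% and 0.00511%). At an unadjusted p under 0.05, limma with the trend had Xbp1 higher and Ddit3 and Pdia3 lower for PT (12.2% of all genes passed), and without it only Hyou1, lower (7.62%). At the same level, limma without the trend had Atf3 and Dnajb9 higher and Atf6 lower for daidzein (17.7% of all genes passed).

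Of the 8 genes with several probes, 7 had at least 2 probes well above background on all arrays. The Dnajb9 probes ran the same way in the daidzein pairs, and those of Sec61b lay between -0.13 and -0.07 for daidzein+PT over PBS. The 3 Ssr1 probes ranged from -0.05 to 0.38 for PT over PBS, with the dimmest probe highest. The 2 Pdia6 probes gave -0.08 and 0.26 for daidzein+PT over PBS, and the 2 Atf4 probes -0.10 and -0.31.

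The wider machinery of ER folding and quality control, 39 of 41 listed genes read on both arrays, had a median of -0.03 for daidzein+PT over PBS. Of these, 36 lay within 0.32, where 75.7% of all genes and 84.0% of the 6086 brightest did. In this list 1 gene was 1.5-fold higher (6.00% of all genes) and none was 1.5-fold lower (2.96%). The one was Ero1lb, an oxidase that recharges the disulfide isomerases, with 0.237 in daidzein+PT, 0.134 in PT and 0.158 in daidzein cells, against 0.142 in PBS cells. It is among the dimmest genes, where the SD of a log2 difference was 0.33. Ero1l and Erp44, known for releasing and retaining adiponectin in the ER, were chosen for that role after their values were seen. Ero1l, an oxidase like Ero1lb, had 2.20 in daidzein+PT, 2.41 in PT and 1.72 in daidzein cells, against 2.54 in PBS cells, and was lowest with daidzein alone (log2 -0.56 over PBS). Erp44 had 2.93 in daidzein+PT, 2.89 in PT and 2.85 in daidzein cells, against 2.81 in PBS cells. In the wider ATF4 pathway, 31 of 34 genes were read for daidzein+PT over PBS, with a median of -0.09. None of these was 1.5-fold higher or lower (6.00% and 2.96% of all genes), and 21 lay within 0.32 (67.7%, against 75.7% of all genes). Its largest differences were those of Cebpg, a partner of ATF4 (0.58), and the amino acid transporter Slc7a5 (-0.54).

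Markers of the adipocyte state differed between the arrays by more than the ER genes did. The 10 mature adipocyte markers had medians of 3.11 for daidzein+PT, 1.09 for PT and 2.39 for daidzein over PBS, and all 10 were above 0 in each. Adipoq, which encodes adiponectin, had 142 in daidzein+PT, 33.8 in PT and 79.4 in daidzein cells, against 16.0 in PBS cells. The 10 preadipocyte and fibroblast markers had medians of -0.25, -0.03 and -0.23 in the same comparisons. In such bulk RNA a change in the number of cells of a type and a change in RNA per cell cannot be told apart. The part of the change in cell state in the differences of Dnajb9, Atf3, Xbp1 and Derl1 was not tested.

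**Figure D4:**
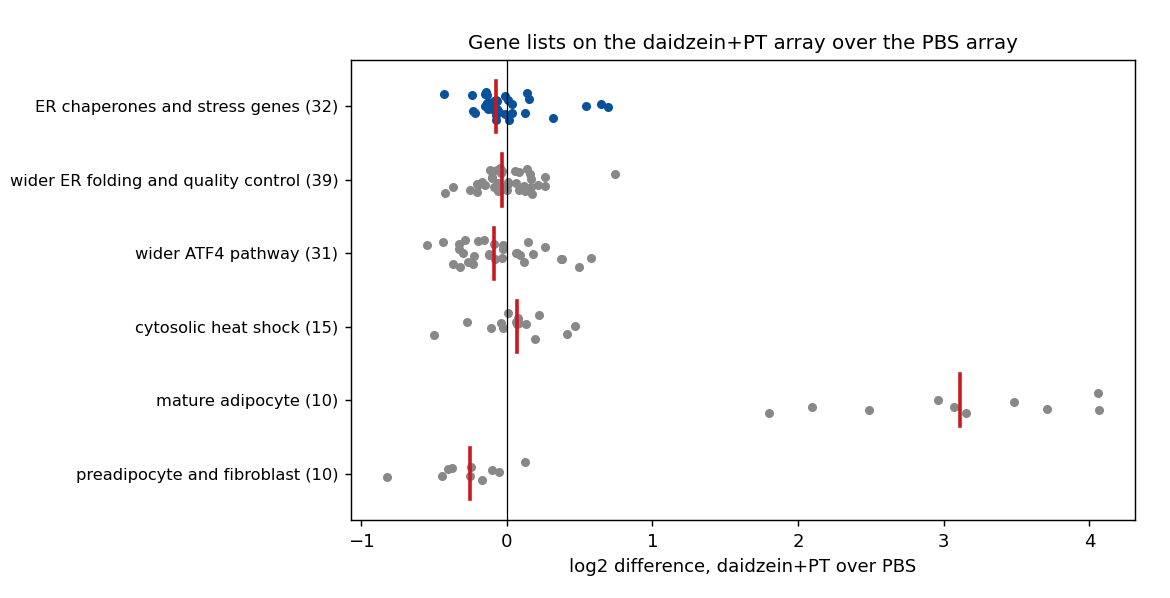
Each point is a gene of a list, placed at its log2 difference for daidzein+PT over PBS, with red bars at the medians and the number of genes read in parentheses. Vertical scatter within a row has no meaning. The ER chaperone and stress genes sit around -0.07 while the mature adipocyte markers sit around 3.11.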

How the data were processed

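Cy3-labelled RNA of 1 culture condition per array was read on 4 Agilent mouse arrays. The deposited scanner files hold a linear intensity per spot that Feature Extraction 10.7.1.1 subtracted for background and detrended, per the file headers, while the submitters' processing notes name version 9.5.1.1. A series table with intensity values was deposited too and served only as an alternative. From 59305 non-control spots, those with outlier flags were left out (106 to 173 per array). The 75th percentile of each array was subtracted on the log2 scale, spots of a probe were averaged, and the brightest probe stood for a gene. Comparisons of 2 arrays used genes flagged well above background on each of them. The additive fit used limma 3.58.1 on genes with that flag on 2 arrays or more. On simulated data of 18256 genes for PT, the fit called 99 of 100 genes changed 2-fold and 69 of 100 changed 1.5-fold, and 16 of 18056 unchanged genes. Simulated noise was independent between genes, which leaves out any effect shared by an array. These counts hold for that noise only, and the rate of false calls on the 4 arrays was not tested. Other lists were matched through symbols and synonyms of a RefSeq table, used only for names in that step. Start sites of the promoter windows came from the RefSeq table named with them. Probe positions are those of the files (mm9), and their place within transcripts was not analysed here. The 32 genes, the lists and the rule for named genes (all 32, and in other lists those at 1.5-fold for daidzein+PT over PBS or the 2 largest) were chosen with earlier results of these data known. The alternatives were normexp (offset 50), median, quantile and spike-in scaling, the mean over probes, no filter on dim probes, the series table, and the fit without trend.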

Additional observations from a re-analysis of the deposited data

How the results depend on the processing

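No fit with a replicate block was possible because each group had 1 array. Of 1120 differences of single genes under 7 alternatives, 998 moved by less than the SD of a difference and 122 by more (84 of them with median scaling), and none that was at 1.5-fold turned its sign. Those at 1.5-fold were only Atf3 and Dnajb9, for daidzein+PT over PBS and over PT. Many of the 998 could not move. Dropping the filter leaves all 160 of its values as they were, and the mean over probes can change only the 7 genes with several probes well above background. With 49.7% to 51.4% of spots well above background the median probe is close to background, and scaling to it put the median of all genes at -0.24 for daidzein+PT over PBS (-0.03 with the 75th percentile) and -0.27 for PT over PBS (-0.02). Spike-in scaling put it at 0.13 for PT over PBS. With median scaling the medians of the 32 genes were -0.29 for daidzein+PT over PBS, -0.30 for PT over PBS and -0.17 for daidzein+PT over daidzein, and with spike-ins 0.089 for PT over PBS. Relative to the median of all genes, the set differed by -0.04 for both of these over PBS under either scaling. For daidzein+PT over PBS, the 2 genes at 1.5-fold higher became 1 with normexp and 0 with median scaling, where 1 gene was lower. For PT over PBS, median scaling gave 1 gene lower, and for daidzein+PT over PT spike-ins gave 1 higher. Lower by 0.32 in both PT pairs were 3 genes with median scaling, 1 with quantile normalization and 1 with the series table. Higher in both daidzein pairs was 1 gene with normexp. In the limma fit, 1 gene was called higher for PT with spike-ins and 2 lower with median scaling. For daidzein, 2 were called higher with median scaling, 3 with quantile normalization, 3 with the series table and 0 without the trend, and 1 was called lower with spike-ins. The shares of all genes under the alternatives of scaling and background are not given here. These counts therefore describe the processing and are not results about the set. Counts within 0.32 of 0, added after the data were seen, dropped to 18 of 32 with median scaling for daidzein+PT over PBS and for PT over PBS, but stayed at 27 and 31 relative to the median of all genes. Signal over background limits Atf3, Atf6, Ern1 and Hyou1 most.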

Other observations

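Heat shock genes outside the ER, cytosolic except for the mitochondrial Hspd1 and Hspe1, were read for 15 of 17 listed genes. Their median log2 difference was 0.07 for daidzein+PT, -0.06 for PT and 0.04 for daidzein over PBS, and none was 1.5-fold higher or lower for daidzein+PT over PBS (6.00% and 2.96% of all genes). For daidzein over PBS 1 was 1.5-fold lower, Hspa1a at -0.62 (2.40% of all genes). Hspd1, the mitochondrial chaperonin, had a scaled signal of 64.1 in daidzein+PT, 47.0 in PT and 53.6 in daidzein cells, against 46.2 in PBS cells. Hspa1a, the inducible cytosolic chaperone, had 0.132 in daidzein+PT, 0.172 in PT and 0.121 in daidzein cells, against 0.187 in PBS cells, so both daidzein arrays were lower than both others. Hspa1a is among the dimmest genes, where the SD of a log2 difference was 0.33.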
